A study of Mus musculus with 18 samples.

Results

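The spinal cord of SMA mice was followed from postnatal day 2 (P2) to postnatal day 6 (P6), 2 ages that span the start of myelination in this tissue. Each gene was described by log2((FPKM at P6 + 1) / (FPKM at P2 + 1)), where FPKM is fragments per kilobase of transcript scaled to depth and 1 is a pseudocount. Genes were kept if their locus carried a single gene symbol, had an OK status from Cuffdiff in both SMA groups and reached FPKM 5 in at least 1 of them. This left 8684 of 58570 gene loci, 7806 of them protein-coding. Of the 8684, 8617 had an error in both groups and could be tested, and 67 were listed at 0 in 1 group. Cnpy4 lay just inside the threshold, at FPKM 5.00 at P2, and Eya3 just outside it, at 4.99983.

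Total RNA came from whole spinal cords of the SMNΔ7 strain, depleted of ribosomal RNA. SMA animals were homozygotes at P2 and P6, and heterozygotes of the same strain and ages served as controls. By the design of this model, homozygotes have no working Smn1 and survive on transgenes of its human counterpart, which the labels do not list. Each group stands for 3 libraries that the authors combined, so the tables give 1 value and 1 model interval per group and gene, with no value per library. Errors below are standard errors (SE) of log2 ratios read from that interval. Sex, litter and the number of cords per library were not given in the sources used here.

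Spinal muscular atrophy is caused by too little survival motor neuron protein, which helps to assemble the small nuclear ribonucleoproteins of the spliceosome, and it is known for the loss of spinal motor neurons. In the first postnatal days oligodendrocyte precursors in the cord mature and wrap axons in myelin, astrocytes acquire their adult channels and transporters, and neurons leave their phase of axon growth. A whole cord also brings meninges, stubs of the nerve roots with Schwann cells, and blood.

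Smn1, the targeted gene, was close to absent from SMA cords, at FPKM 0.0210 at P2 and listed at 0 at P6, where control cords had 2.70 and 4.46. The deposited fragment estimates of SMA cords summed to 7167763 at P2 and 7385495 at P6. They are scaled to near equal totals across groups and do not give the sequenced depth. The 10 most abundant loci took 9.14% and 14.4% of them. The SMA group at P2, the baseline of the SMA changes below, differed from the control group of that age in several gene lists. SMA values at P2 were above control values at P2 for 21 of 23 astrocyte maturation genes. The same held for 14 of 14 glucocorticoid and fasting response genes, but for only 1 of 12 neurogenic transcription factors. The 23 myelin genes of SMA cords at P2 summed to FPKM 3983, against 384.7 in control cords at P2 and 2116 in control cords at P6. The Y-linked genes also differed between groups: Ddx3y, which encodes an RNA helicase, was at FPKM 6.82 in SMA cords at P2, 14.9 in SMA cords at P6, 17.9 in control cords at P2 and 4.92 in control cords at P6. The locus that joins Xist with 2 other symbols was at FPKM 67.3, 33.6, 0.0639 and 69.8 in the same order. The part of sex composition in the changes below was not tested. Cord identity was present at both ages, with Hoxb8 at FPKM 24.9 and 23.9 and the motor neuron gene Chodl at 8.25 and 9.57, while Chat, the acetylcholine-synthesizing enzyme, stayed under the threshold at 1.57 and 2.12.

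Most genes differed by less than 1.25-fold between P2 and P6 in SMA cords. Of 7805 protein-coding genes tested, 92.8% were within 1.25-fold, and the median log2 ratio was 0.011 with an SD of 0.189 across genes. In control cords the same genes were spread more widely, with 83.0% within 1.25-fold, a median of -0.063 and an SD of 0.274. In SMA cords 10 protein-coding genes were at least 2-fold higher at P6 and 6 at least 2-fold lower, against 44 and 9 in control cords. Over all loci tested, members or not, 0.39% were 2-fold higher and 0.364% 2-fold lower in SMA cords. At 1.5-fold the SMA counts were 54 higher and 47 lower, and the control counts 167 and 76. The corresponding shares over all tested loci were 2.46% and 1.9% in SMA cords, and 3.83% and 1.74% in control cords. Over all 8617 tested genes, 4619 ratios were above 0 and 3998 below in SMA cords, and 3392 above and 5220 below in control cords. Sign counts of the lists below stand against these unequal splits. When taken from the deposited fragment estimates the SMA split became 2926 above and 5691 below, so ratios near 0 have no stable sign.

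**Figure D1:**
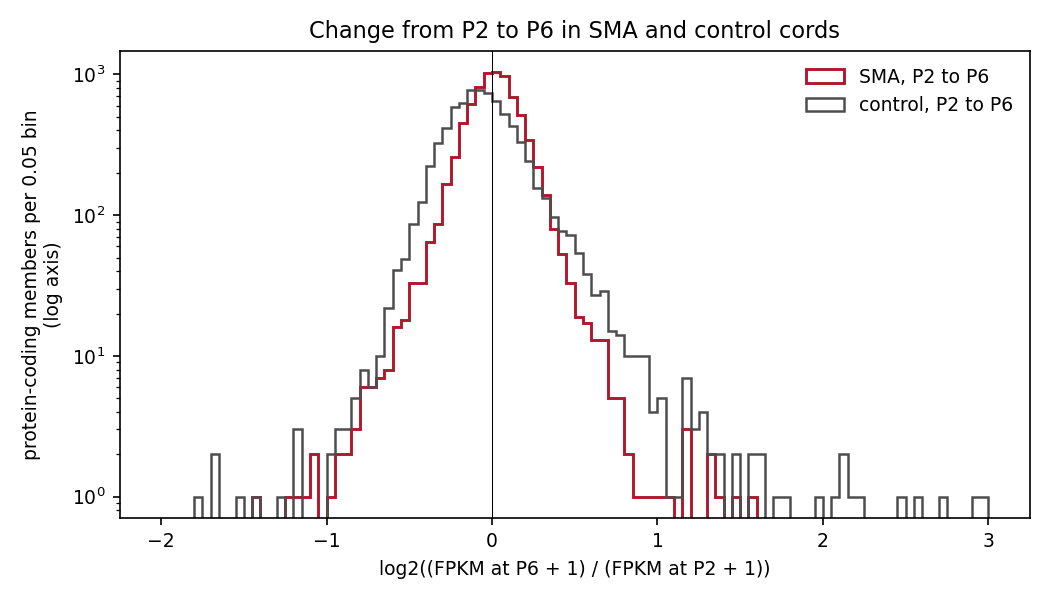
Number of protein-coding genes (log axis) by log2((FPKM at P6 + 1) / (FPKM at P2 + 1)), in bins of 0.05, for SMA cords (red) and control cords (grey). The SMA distribution is the narrower, with an SD of 0.189 against 0.274 in control cords.

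The test called no protein-coding gene between P2 and P6 in SMA cords. The two-sided z test from the deposited intervals, adjusted by Benjamini-Hochberg over 19251 loci, called 7 loci (0.0364% of those tested), and 3 of them were among the 8617 genes described. These 3 are loci annotated as microRNA, named here after their values were seen. Gm25197 fell from FPKM 81.7 to 17.9, a log2 change of -2.13 (SE 0.16). Gm26268 rose from 19.6 to 82.0, a change of 2.01 (SE 0.17), and Gm22419 rose from 31.7 to 59.0, a change of 0.87 (SE 0.07). All 3 rested on very few reads, with an estimated 1.61 and 0.178 fragments for Gm25197, 0.202 and 0.843 for Gm26268, and 0.202 and 0.356 for Gm22419. None of the 3 was called from the fragment estimates and their variance, which called 0 loci. Among protein-coding genes 7 had an unadjusted p under 0.05, all of them higher at P6 and 0 lower (over all tested loci 0.171% were higher and 0.0883% lower), and their adjusted p was 1. Among them were Ptgds, Pmp22, Fos, Dcn, Lum and Calca. The intervals of the P2 and P6 values did not overlap for 10 genes (0.119% of all tested loci did so), of which Ptgds was the only one that encodes a protein.

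The myelin genes were lower at P6 than at P2 in SMA cords and higher at P6 than at P2 in control cords. Of 23 myelin and mature oligodendrocyte genes that reached the threshold, 21 had a ratio below 0 in SMA cords, with a median of -0.54, and 9 were at least 1.5-fold lower. In control cords all 23 had a ratio above 0 and the median was 1.58. The median over all 8617 genes was 0.01 in SMA cords and -0.06 in control cords. None of the 23 was called on its own in SMA cords by the z test, and none had an unadjusted p under 0.05. Fewer oligodendrocytes and less myelin RNA per oligodendrocyte cannot be told apart in bulk tissue, and this holds for every cell type below.

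The proteins of compact myelin are the most abundant of these genes. Mbp, which holds the cytoplasmic faces of myelin together, was at FPKM 1840 in SMA cords at P2 and 1130 at P6, and at 149.6 and 1012 in control cords. The values of the 2 genotypes thus lay nearer to each other at P6 than at P2. Mal, a proteolipid of myelin membrane trafficking, was at 78.6 and 35.4 in SMA cords and at 5.62 and 28.5 in control cords. Its log2 ratio was -1.13 (SE 0.62) in SMA cords. Cldn11, which forms the tight junctions of myelin, was at 129 and 91.7, against 15.2 and 74.2 in controls.

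Genes of the outer surface and the inner, axon-facing side of the sheath had the same order of levels. Mog, an outermost surface glycoprotein, had the lowest ratio of any protein-coding gene, at -1.44 (SE 1.28). It was at FPKM 51.4 in SMA cords at P2 and 18.3 at P6, and at 2.07 and 17.4 in control cords. Mag, the adhesion protein that faces the axon, was at 145 and 99.6 in SMA cords and at 11.1 and 92.4 in control cords. Gsn, an actin-severing protein abundant in oligodendrocytes, was at 83.1 and 36.5, against 7.56 and 32.5 in controls. Ermn, a cytoskeletal protein of late oligodendrocytes, was at 8.09 and 4.22, against 0.438 and 3.93 in controls. Ermn thus reached the threshold only through its value in SMA cords at P2. Gjb1, a gap junction protein, was at 9.42 and 6.02, against 1.15 and 5.41. Within the list, Myrf, the transcription factor that turns on myelin genes, had a ratio nearer to 0, with FPKM 11.5 and 10.1 in SMA cords. Only Car2, the carbonic anhydrase of oligodendrocytes, with 18.2 and 23.4, and Ndrg1, with 9.51 and 9.95, had ratios above 0. For 22 of the 23 genes the SMA value at P2 was above the control value at P6, and for all 23 it was above the control value at P2. For all 23 the SMA value at P6 was above the control value at P6.

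**Figure D2:**
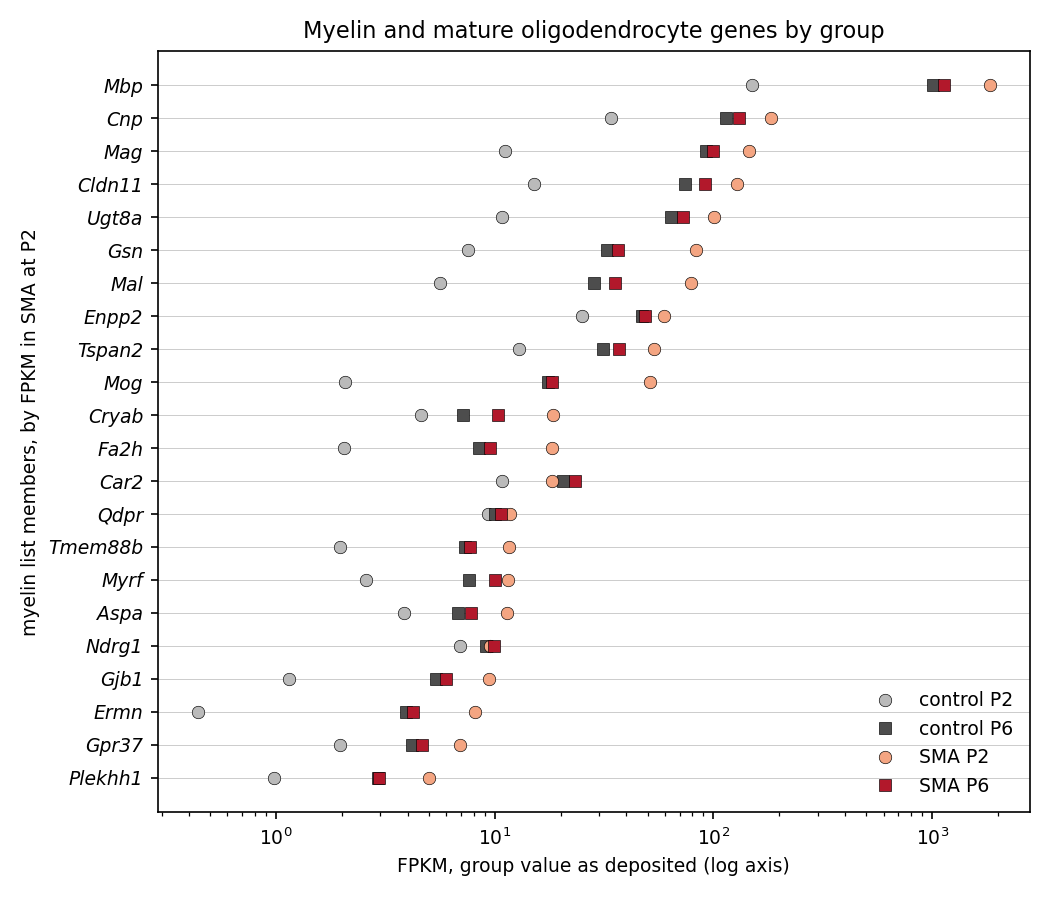
FPKM (log axis) of 22 of the 23 myelin and mature oligodendrocyte genes, as group values without replicates, in control cords (grey) and SMA cords (red) at P2 (circles) and P6 (squares). Squares of both genotypes lie close together, the control P2 circles lie to their left, and the SMA P2 circles lie to their right except for Car2 and Ndrg1.

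The SMA values at P2 also carried the widest intervals. For the myelin genes the median distance from the FPKM to its upper bound was 73.2% of the FPKM in SMA cords at P2, and 53.2%, 57.9% and 54.1% in SMA cords at P6, control cords at P2 and control cords at P6. Over all genes described, that distance was 56.6% at P2 and 55.8% at P6 in SMA cords. For Mbp the interval at P2 ran from 0 to 6286 in SMA cords and from 80.5 to 219 in control cords. The tables do not hold the 3 libraries behind these intervals, so whether 1 library carried the high P2 level was not tested.

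Whether the 2 genotypes changed differently was asked with a second z test, on the SMA change minus the control change. It called 5 of 20371 loci (0.0245%), and all 5 were small RNA loci named after their values were seen. The difference was 3.40 for Gm26268, -2.57 for Gm24233, -2.29 for Gm25534, -1.87 for Gm25492 and -1.08 for Gm22692, and each locus rested on under 2 estimated fragments in each of the 4 groups compared. No protein-coding gene was called, though 27 had a lower change in SMA at an unadjusted p under 0.05 and 1 a higher, Ddx3y (0.299% and 0.0933% of all tested loci). Of the 23 myelin genes 14 were among those 27. Mal and Ermn came nearest, with differences of -3.28 (SE 0.76) and -2.58 (SE 0.60) and adjusted p of 0.0524 and 0.0549. Both were called with a pseudocount of 0.1 or none, at FPKM 5 or more, and with the error from the lower bound. They were also called with the interval read as that of 1 library and with loci listed at 0 counted. At FPKM 5 or more Ermn entered the test only through its high value in SMA cords at P2, so that call is no separate support. From the fragment estimates Mal was called and Ermn was not. Neither was called without a filter on low values or over protein-coding loci alone. Gsn followed at -3.14 (SE 0.84) and Ugt8a at -2.92 (SE 0.85), with adjusted p of 0.37 and 0.692.

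Set against control cords at P2 in place of SMA cords at P2, the myelin genes at SMA P6 had a median log2 ratio of 1.71. That comparison called 29 of 19444 loci, 10 of them protein-coding genes described here, among them Mbp, Mag, Mal, Ermn, Cldn11, Ugt8a, Gsn, Elovl7 and Gpr37l1. Each of the 10 was higher in SMA cords at P6, and the log2 ratios of those named ran from 1.83 for Elovl7, a fatty acid elongase, to 3.05 for Mag. It shares the control P2 group with the control change and crosses genotypes.

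The DNA just upstream is shown for some myelin genes with opposed changes in SMA and control cords. Mog had the lowest SMA ratio, and Mal and Ermn came nearest to a call among protein-coding genes in the second test. The 250 bases before the RefSeq start site (GRCm38.p6, each read 5′ to 3′ on the gene's strand) are given for Mog at chr17:37023399-37023648, Mal at chr2:127656696-127656945 and Ermn at chr2:58052865-58053114. Ptgds at chr2:25469750-25469999 is the protein-coding gene whose P2 and P6 intervals did not overlap in the other direction. All 4 lie on the minus strand. Capitals mark ACAAT or its complement ATTGT, the core that Sox proteins such as Sox10 recognize, searched on both strands.
Mog: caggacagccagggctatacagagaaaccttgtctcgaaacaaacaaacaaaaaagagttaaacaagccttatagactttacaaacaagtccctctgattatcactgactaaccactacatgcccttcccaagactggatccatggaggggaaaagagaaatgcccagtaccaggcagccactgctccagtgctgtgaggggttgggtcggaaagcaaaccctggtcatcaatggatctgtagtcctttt
Mal: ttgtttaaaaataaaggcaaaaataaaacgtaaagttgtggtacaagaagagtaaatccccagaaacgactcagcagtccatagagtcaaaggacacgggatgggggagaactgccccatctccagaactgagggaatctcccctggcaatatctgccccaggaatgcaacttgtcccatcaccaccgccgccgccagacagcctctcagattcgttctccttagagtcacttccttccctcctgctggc
Ermn: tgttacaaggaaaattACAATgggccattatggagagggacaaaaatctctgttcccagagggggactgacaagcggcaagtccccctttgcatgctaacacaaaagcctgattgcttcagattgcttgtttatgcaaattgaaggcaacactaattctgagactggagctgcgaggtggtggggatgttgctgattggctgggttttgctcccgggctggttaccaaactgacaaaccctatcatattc
Ptgds: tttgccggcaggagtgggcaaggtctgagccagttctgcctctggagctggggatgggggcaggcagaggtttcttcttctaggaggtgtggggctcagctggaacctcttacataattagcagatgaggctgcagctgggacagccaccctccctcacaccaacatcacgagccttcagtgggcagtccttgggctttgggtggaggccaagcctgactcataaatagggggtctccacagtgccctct
The core was found once, upstream of Ermn, and not in the windows of Mog, Mal and Ptgds. RefSeq windows were matched for 15 of the 23 myelin genes, some with several starts, and 6 of their 23 windows (26.1%) held the core. It was present in 17.8% of the windows of the genes described and in 27.7% of all 32851 RefSeq windows of this length. A match describes the letters and not a binding site.

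Lipid synthesis genes, which supply membrane to the growing sheath, were slightly lower at P6 in SMA cords. Of 21 genes of cholesterol synthesis and uptake, 20 had a ratio below 0, with a median of -0.24, where control cords had 12 above 0 and a median of 0.07. None was called. Hmgcs1, an early enzyme of the pathway and the most abundant of the list, was at FPKM 184 and 150.1 in SMA cords and at 131 and 149 in control cords. Cyp51, the sterol demethylase of the pathway, was at 48.4 and 44.8, against 40.0 and 42.1. For both genes the SMA P2 value was the highest of the 4 groups, as it was for Mbp. Of 21 genes of galactolipid and long-chain lipid synthesis 16 had a ratio below 0, with a median of -0.15. Fa2h, which hydroxylates the fatty acids of myelin lipids, was at 18.3 and 9.54 in SMA cords and 2.04 and 8.51 in control cords. Ugt8a, which makes galactosylceramide, was at 100.4 and 72.3, against 10.8 and 63.9.

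Oligodendrocyte precursor genes did not share the lower P6 level. Of 16 genes 10 had a ratio above 0 in SMA cords, with a median of 0.08, none was 1.5-fold apart between the ages, and none was called. The same list had a median of 0.58 in control cords, with 8 genes at least 1.5-fold higher. Ptprz1, a receptor phosphatase of precursors, was at FPKM 60.1 and 77.2 in SMA cords and at 61.9 and 75.8 in controls. Gpr17, a receptor of committed precursors, was at 31.4 and 32.8 in SMA cords and at 14.0 and 36.2 in controls. Enpp6 and Bcas1, which mark newly formed oligodendrocytes, were at 13.9 and 11.9, and 44.2 and 33.4, in SMA cords. In control cords they were at 3.01 and 10.9, and 12.3 and 31.5, so their SMA values at P2 were above the control values at both ages.

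Astrocyte genes had close to the same level at both ages in SMA cords. Of 23 genes of astrocyte maturation 13 had a ratio above 0, with a median of 0.01 that turned to -0.05 from the fragment estimates, and none was called. In control cords 20 of the 23 were above 0, 15 were at least 1.5-fold higher, and the median was 0.69. Gfap, the astrocyte intermediate filament, was at FPKM 201 and 172 in SMA cords and at 65.6 and 158 in control cords. Aqp4, the water channel of astrocyte endfeet, was at 118 and 130.2 in SMA cords and at 70.6 and 135 in controls. Slc1a2, the main glutamate transporter, was at 133 and 122, against 57.2 and 104. Kcnj10, the potassium channel of glia, had the lowest ratio at -0.52 (SE 0.49), with 23.7 and 16.2 in SMA cords and 6.94 and 14.7 in controls. For 17 of the 23 the SMA value at P2 exceeded the control value at P6. The 10 radial glia genes had medians of -0.06 in SMA cords and -0.11 in control cords. Among them Tnc, a matrix protein of immature glia, was at 23.4 and 16.2 in SMA cords and at 30.7 and 19.6 in control cords.

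Some genes of immature neurons were lower at P6 in both genotypes. Dcx, a microtubule protein of young neurons, was at FPKM 35.6 in SMA cords at P2 and 19.8 at P6, and at 46.0 and 23.5 in control cords. Its log2 ratio was -0.82 (SE 0.79) in SMA cords and -0.94 in control cords. Sox11, a transcription factor of newborn neurons, was at 14.5 and 8.37 in SMA cords and at 18.6 and 10.2 in controls, with ratios of -0.73 (SE 0.40) and -0.81. Mex3a, an RNA-binding protein, was at 5.55 and 3.07, against 7.18 and 3.82. None of the 3 was called in SMA cords, and their unadjusted p were 0.303, 0.0714 and 0.0774.

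The rest of these lists had ratios near 0 in SMA cords where control ratios were below 0. Of 27 growth cone genes 13 were above 0 in SMA cords, with a median of -0.02, and 2 in control cords, with a median of -0.26. Gap43, a growth cone membrane protein, was at FPKM 173 and 178 in SMA cords and at 244 and 149 in controls. Of 12 neurogenic transcription factors 6 were above 0 in SMA cords and 0 in control cords, with medians of -0.07 and -0.58. Ebf3 was at 45.3 and 45.7 in SMA cords and at 60.1 and 38.9 in controls. For 11 of these 12 genes the SMA value at P2 was below the control value at P2. Tubulin Tuba1a, the abundant alpha-tubulin of growing neurons, was at 874 and 751 in SMA cords and at 1040 and 642 in control cords. Of 23 developmental RNA-binding genes 20 were below 0 in SMA cords and 21 in control cords, with medians of -0.11 and -0.25. The 9 Hox genes had medians of -0.09 and -0.33. No gene of these lists was called in SMA cords, and the difference between genotypes passed the test for none.

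Most genes of synaptic vesicles and of transmitter and neurotrophin receptors had a ratio slightly above 0 in SMA cords, and most genes of neurofilaments and the mature axon a ratio slightly below 0, with no call in either. Of 31 synaptic vesicle genes 24 had a ratio above 0 and 7 below, with a median of 0.10, the same as in control cords. Snap25, a protein of vesicle fusion, was at FPKM 128 and 134 in SMA cords and at 109 and 118 in controls. Synpr, a synaptic vesicle membrane protein, had the highest ratio, with 17.9 and 25.5 in SMA cords (0.48, SE 0.41) and 19.02 and 19.95 in controls. Of 20 genes for glycine and GABA receptors and chloride transporters 16 were above 0, with a median of 0.14. Slc12a5, the chloride extruder that makes these transmitters inhibitory, was at 49.1 and 57.5, and Glrb, the glycine receptor beta subunit, at 53.2 and 65.9. Slc12a2, the chloride importer, had the lowest ratio of that list, with 24.5 and 20.5 in SMA cords and 12.1 and 18.5 in control cords. Of 16 glutamate receptor genes 14 were above 0 in SMA cords and 6 in control cords, with medians of 0.11 and -0.11. Over all 8617 genes 4619 were above 0 in SMA cords and 3392 in control cords. Of 14 neurotrophic factor and receptor genes 13 were above 0, with a median of 0.18, led by Ntrk3, the receptor of neurotrophin-3, at 32.7 and 45.2. Of 17 genes of neurofilaments and the mature axon 6 were above 0 in SMA cords and 11 below, with a median of -0.03, and 12 were above 0 in control cords, with a median of 0.07. Ina, a neuronal intermediate filament protein, had the lowest ratio of that list, at FPKM 36.35 and 29.6 in SMA cords (-0.29, SE 0.57) and 38.6 and 32.9 in controls. Potassium, sodium and calcium channel lists had medians of 0.04, 0.00 and 0.06.

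Genes of motor neurons, the cells lost in SMA, had a median log2 ratio of 0.07 in SMA cords and 0.06 in control cords over 12 genes. Slc5a7, the choline transporter, was at FPKM 8.74 and 9.09, and Slc18a3, which loads acetylcholine into vesicles, at 7.46 and 6.40. In control cords these were at 9.58 and 11.9, and 7.32 and 8.21. Chodl, a marker of fast motor neurons, was at 8.25 and 9.57 in SMA cords and at 14.2 at both ages in control cords. Excitatory and inhibitory interneuron lists of 9 genes each had medians of 0.05 and 0.04. The neuropeptide gene Sst was at 88.6 and 114, and Npy at 27.4 and 20.8.

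Genes of fibroblasts and meninges had the highest median ratio among the lists with at least 5 genes. All 17 had a ratio above 0 in SMA cords, 8 were at least 1.5-fold higher, and the median was 0.57. In control cords 14 were above 0, 3 were at least 1.5-fold higher, and the median was 0.25. Ptgds, the prostaglandin D synthase made by meninges and by oligodendrocytes, was at FPKM 43.3 in SMA cords at P2 and 120.1 at P6, and at 72.6 and 88.2 in control cords. Its ratio was 1.45 (SE 0.45, unadjusted p 0.00131, adjusted p 1). Dcn, a small proteoglycan of connective tissue, was at 11.1 and 22.2 in SMA cords and at 13.7 and 21.8 in controls, and Lum, its relative, at 2.11 and 5.20, against 2.50 and 4.12. For all 3 the SMA value at P2 was the lowest of the 4 groups. Col1a1 and Col1a2, the chains of type I collagen, were at 21.3 and 37.3, and 45.7 and 73.9, in SMA cords, and at 18.9 and 24.4, and 48.5 and 62.6, in controls. Igf2, also in the list, was at 48.8 and 54.8. The list summed to FPKM 278 and 469 in SMA cords and to 326 and 398 in control cords, and 0 of its 17 genes was at 0. The amount of meninges left on the cords was not tested. A collagen list of 19 genes, 6 of them also in this list and 1 of them Col4a3bp, which carries ceramide and is no collagen, had medians of 0.28 in SMA cords and 0.10 in control cords.

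No Schwann cell gene was called in SMA cords, where Pmp22 was more than 2-fold higher at P6. Pmp22, a membrane protein of compact peripheral myelin, was at FPKM 29.7 and 76.6 in SMA cords and at 23.2 and 62.4 in controls, with ratios of 1.34 (SE 0.47) and 1.39. Prx, which links Schwann cell myelin to the cytoskeleton, was at 3.34 and 5.75, against 2.57 and 4.23, and Drp2 was at 9.49 and 9.52, against 9.70 and 9.38. The ratio of Pmp22 was thus above 0 in both genotypes, where those of 21 of the 23 central myelin genes had opposite signs. The SMA change minus the control change was -0.05 (SE 0.65) for Pmp22. Of the sensory ganglion list, Calca, the precursor of a pain-related peptide that motor neurons also make, was at 6.38 and 15.9 in SMA cords and at 9.73 and 12.1 in controls (1.19, SE 0.60, unadjusted p 0.0454). The other 5 genes of that list ranged from -0.18 for Pou4f1 to 0.50 for Tac1. How much nerve root each sample held was not tested.

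**Figure D3:**
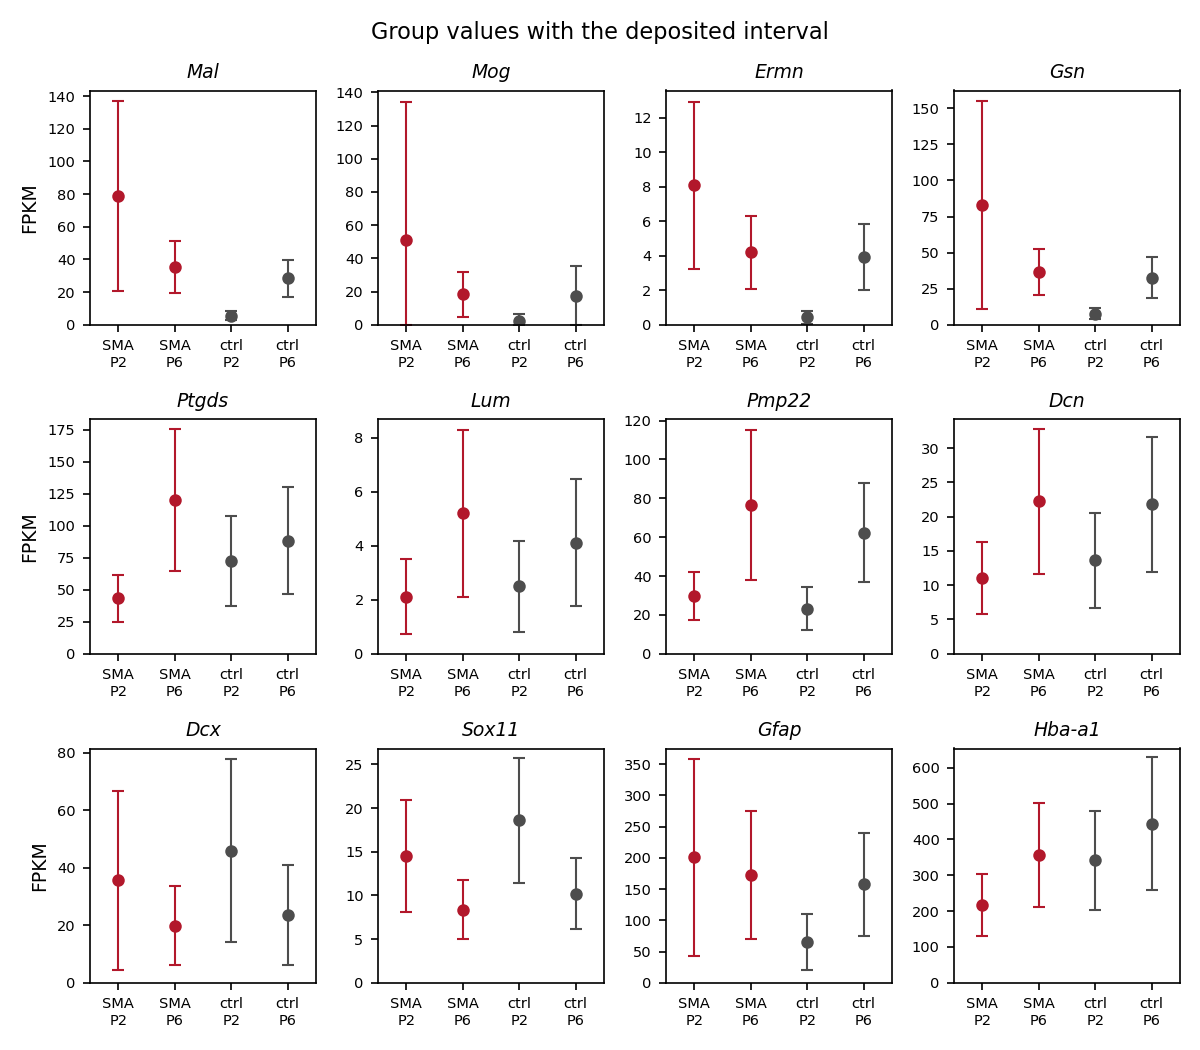
FPKM of 12 genes in SMA (red) and control (ctrl, grey) cords at P2 and P6, with bars for the interval deposited by the authors, read as 95%. Only for Ptgds do the SMA intervals at P2 and P6 stand clear of each other, and the SMA P2 intervals of Mal, Mog and Gsn are the widest of their panels.

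Genes of blood, vessels and immune cells gave no call. The 8 erythroid genes had medians of 0.29 in SMA cords and 0.30 in control cords. Hba-a1, an alpha-globin chain, was at FPKM 218 and 358 in SMA cords and at 342 and 444 in controls, so the SMA value at P2 was the lowest. The 10 endothelial genes had medians of -0.06 and 0.24, and Cldn5, the tight junction protein of the blood-brain barrier, was at 23.0 and 18.3 in SMA cords and at 18.9 and 24.9 in controls. The 12 microglia genes had a median of -0.01, which turned to 0.01 from the fragment estimates. Ucp1 and Fabp4, genes of fat, were at 7.70 and 8.45, and 7.46 and 10.6, in SMA cords, and at 3.66 and 1.05, and 3.64 and 1.47, in control cords. Of the skeletal muscle list 1 of 15 genes reached the threshold, Acta1, the muscle actin, at 8.45 and 3.85, with an SE of 10.3 on its ratio of -0.96. None of the fat and muscle genes was called either.

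General cell programs had ratios close to 0. Of 57 cytosolic ribosomal protein genes 55 were below 0 in SMA cords and 56 in control cords, with medians of -0.15 and -0.24. Rplp1, a protein of the ribosomal stalk, was at FPKM 578 and 531 in SMA cords and at 583 and 483 in controls. The 83 nuclear genes of oxidative phosphorylation had a median of -0.01, and 11 proliferation genes a median of -0.03 that turned to 0.01 from the fragment estimates. Of 46 replication-dependent histone genes 30 were above 0, with a median of 0.17. Of 16 genes of the unfolded protein response 14 were above 0 in SMA cords and 6 in control cords, with medians of 0.15 and -0.02. Over all 8617 genes 4619 were above 0 in SMA cords and 3392 in control cords. Calr, a chaperone of the endoplasmic reticulum, was at 86.8 and 116 in SMA cords and at 102.5 and 101 in controls. Of 14 glucocorticoid and fasting response genes 12 were below 0 in SMA cords and 5 in control cords, with medians of -0.17 and 0.06. Mt1 and Mt2, the metallothioneins, were at 156 and 128, and 146 and 128, in SMA cords, and at 71.5 and 78.1, and 57.9 and 64.7, in controls. Cdkn1a, a cell cycle inhibitor, was at 9.92 and 11.0 in SMA cords and at 7.43 and 5.70 in controls. The 14 genes of the SMN complex and the Sm core, the machinery that SMN serves, had medians of -0.02 and -0.21. None of the genes in these lists was called in SMA cords.

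**Figure D4:**
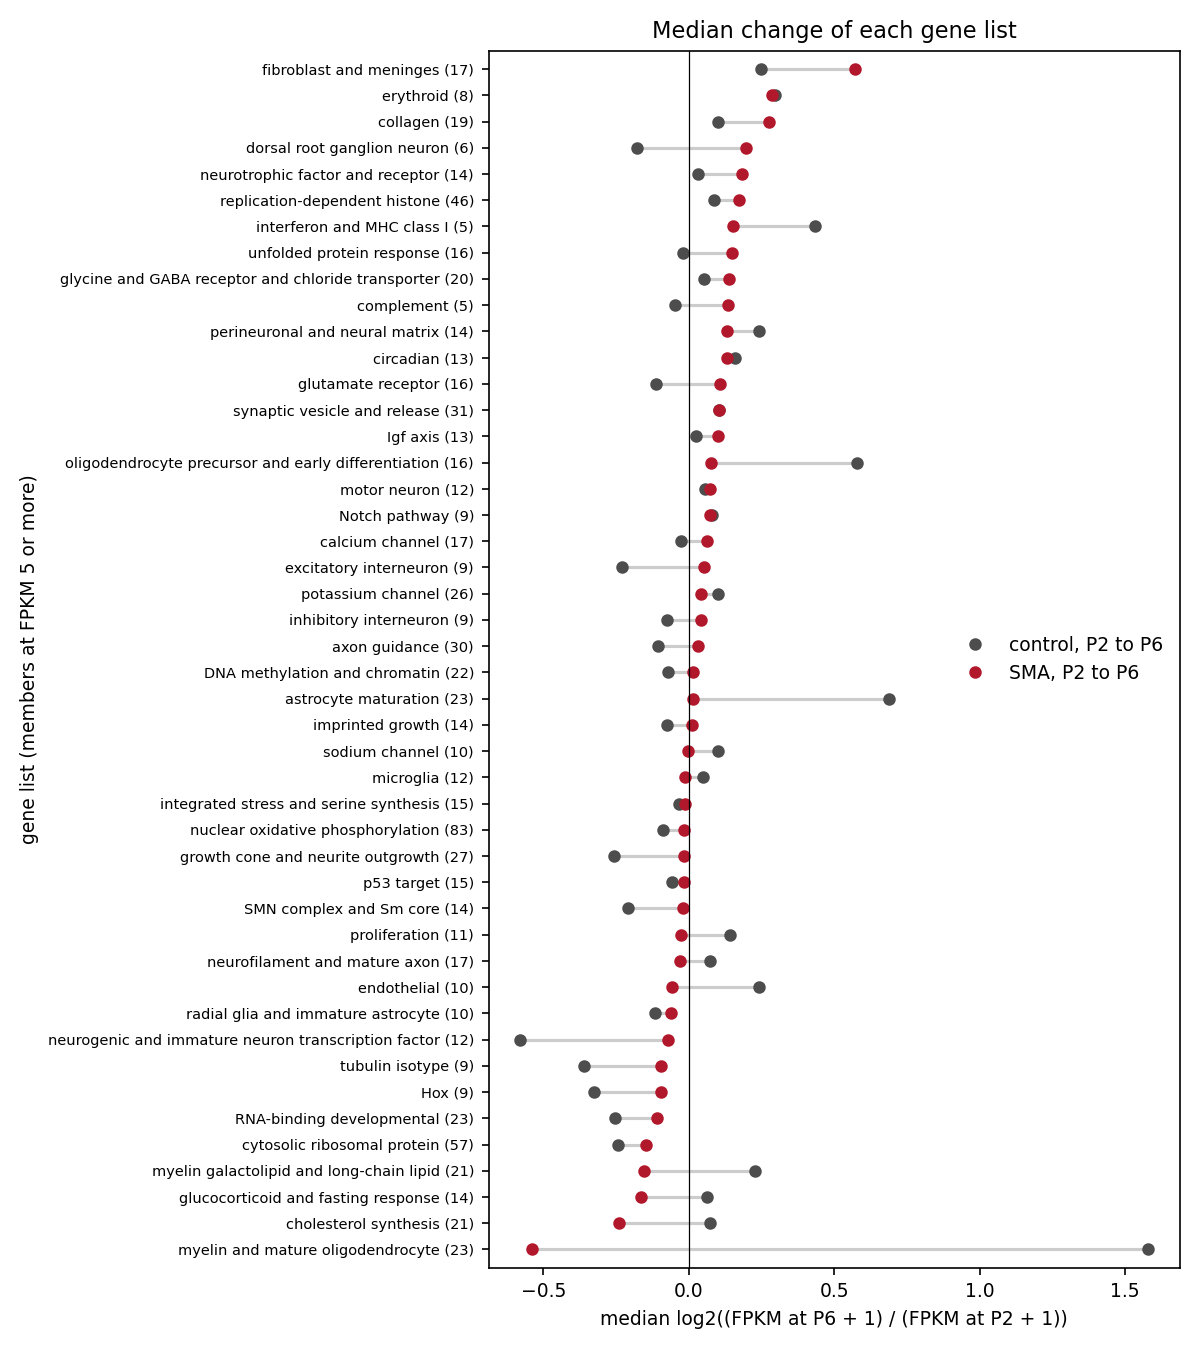
Median log2((FPKM at P6 + 1) / (FPKM at P2 + 1)) of each gene list with at least 5 genes, for SMA cords (red) and control cords (grey), ordered by the SMA median, with the number of genes in brackets. Myelin lies at the bottom in SMA cords, at -0.54, and is the list farthest from its control value, at 1.58. Astrocyte, microglia, proliferation, axon guidance, imprinted growth and chromatin medians, all near 0, change sign when taken from the fragment estimates.

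Among genes outside these cell types, several of the largest ratios had wide errors. Lars2, the mitochondrial leucyl-tRNA synthetase, was at FPKM 1931 and 5070 in SMA cords and at 1290 and 1691 in controls, with an SE of 12.2 on its ratio of 1.39. Ece1 and Ece2, endothelin-converting enzymes, were at 26.3 and 11.8, and 7.60 and 2.70, with SEs of 2.58 and 3.73. Arhgap26, a GTPase-activating protein, was at 5.07 and 2.25, with an SE of 4.70. Pla2g3, a secreted phospholipase, was at 10.04 and 5.04 in SMA cords and at 7.89 and 5.12 in controls. Ogn, a small connective tissue proteoglycan, was at 2.70 and 8.14, with an SE of 1.05. Fos, an immediate early transcription factor, was at 2.19 and 6.15 in SMA cords and at 1.74 and 3.97 in controls (1.16, SE 0.55, unadjusted p 0.035). The Y-linked genes Uty, Eif2s3y and Ddx3y had SMA ratios of 1.16, 1.08 and 1.02 and control ratios of -1.44, -1.52 and -1.68, so their order of levels went opposite ways in the 2 genotypes. They make up 3 of the 10 protein-coding genes at least 2-fold higher at P6.

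Across genes the SMA and control changes were weakly related. Over 7805 protein-coding genes Pearson's r was 0.10 and Spearman's rho 0.20, as a description over genes, which are not independent and share depth and base composition. The sign was the same in both genotypes for 55.1% of them. Without the myelin list r was 0.18 and the share with the same sign 55.2%. Of 76 genes at least 1.5-fold lower in control cords, 56 were below 0 in SMA cords, with a median of -0.17 against -0.69 in controls. For 9 of these 76 the SMA value at P2 was above the control value at P2. The median log2 ratio of SMA over control was -0.32 at P2 and 0.23 at P6. Of the 147 genes at least 1.5-fold higher in control cords and outside the myelin list, 73 were above 0 in SMA cords, with a median of 0.00 against 0.75. For 142 of these 147 the SMA value at P2 was already above the control value at P2. Their median log2 ratio of SMA over control was 0.82 at P2 and 0.09 at P6. Of the 20 myelin genes at least 1.5-fold higher in controls, 1 was above 0 in SMA cords, with a median of -0.54 against 1.69. All these sets were chosen on the control change, so their control medians lie past 1.5-fold by that choice. The SMA medians were not chosen in this way, and the gap between the 2 genotypes is in part set by the choice.

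**Figure D5:**
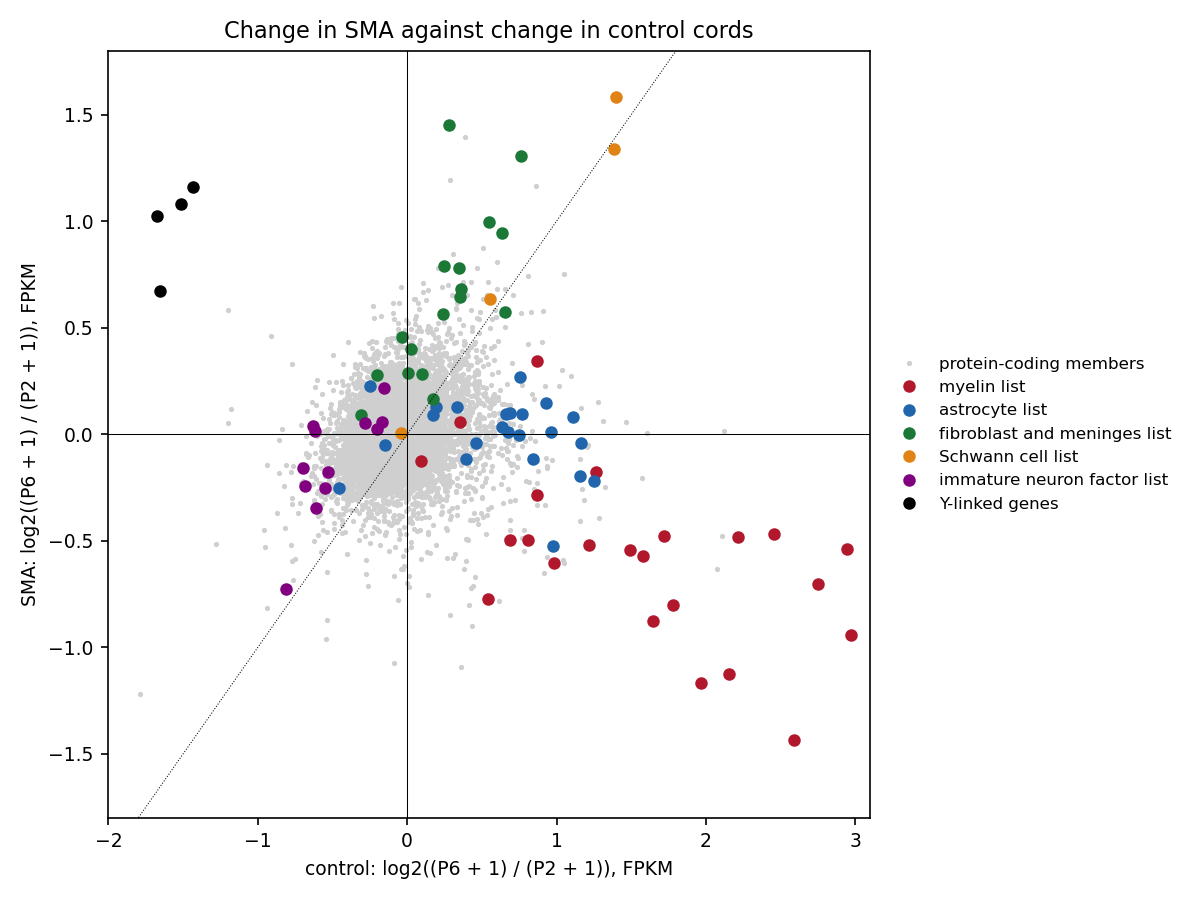
Log2((P6 + 1) / (P2 + 1)) in SMA cords (vertical) against the same in control cords (horizontal) for protein-coding genes (light grey), with gene lists in color and equal change as a dotted line. Myelin genes (red) lie at the lower right, Schwann cell genes (orange) near the dotted line, astrocyte genes (blue) along the horizontal axis, and Y-linked genes (black) at the upper left.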

How the data were processed

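Total RNA libraries of 18 whole spinal cord samples fell into 6 groups of 3 per the labels. The submitters' processing notes name FastQC, Bowtie2 2.2.4 and TopHat2 2.1.1, then Picard, Cuffdiff and Cufflinks 2.2.1, and the mouse build GRCm38; annotation, strand setting and normalization are not given in the sources used here. The authors' FPKM table holds 1 value, a lower and an upper bound and a status per group and locus, with the 3 libraries combined. A companion table deposited by the authors holds estimated counts, the fragments of each group scaled to near equal totals of 6881671 to 7386338, with their variance in squared fragments (an other unit, as deposited). Symbols were matched to GENCODE M21, on the same build, for 97.6% of the genes described.

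The interval was read as 95%. The standard error of a log2 ratio came from the upper bound minus the FPKM, divided by 1.96. Loci at FPKM 1 or more in at least 1 compared group were tested, with Benjamini-Hochberg adjustment over all of them and a threshold of 0.05. Loci listed at 0 in a group have an interval of no width and were left out of the tests, which the planned design had not foreseen. The robust SD of z was 0.238 in the first test and 0.241 in the second, where a standard normal has 1. P-values rest on the authors' interval and on no replicate values, and nothing in the labels says whether the libraries came from separate litters.

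Lists (53, and a sex-linked check) and genes were chosen with earlier results of these data known. Genes named came from a short set (with Smn1, Mbp, Gfap, Chat, Chodl, Mki67, Top2a, Dcx, Gap43, Snap25, Col1a1, Cdkn1a, Xist and Ddx3y), the 10 with the largest ratio in each direction, and the 10 with the smallest p of the second test. Of each list, called genes, the 3 most abundant, the highest and the lowest were named. Predicted genes and small RNAs were counted but not named, apart from those called. Some genes that these rules name are not reported here. All further genes in the text were picked with their values in view. Alternatives were the pseudocount, the FPKM minimum, the fragment estimates, centring, the interval's reading, non-overlap of intervals and control P2 as the baseline. Software was Python 3.11.15, matplotlib 3.10.9, scipy 1.17.1, pandas 2.3.3 and numpy 2.4.6.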

Additional observations from a re-analysis of the deposited data

Results flagged for a closer look

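Each locus here had a change from P2 to P6 that differed between SMA and control cords by the z test of the difference itself. All 5 are small RNA loci with under 2 estimated fragments in each of the 4 groups compared. Gm26268, annotated as microRNA, was at FPKM 19.6 and 82.0 in SMA cords and at 113 and 42.2 in control cords, a difference of 3.40 on the log2 scale. Gm24233, a small nucleolar RNA, was at 68.3 and 41.3 in SMA cords and at 24.6 and 91.5 in controls, a difference of -2.57. Gm25534, annotated as microRNA, was at 46.2 and 31.3, against 24.5 and 84.2, a difference of -2.29. Gm25492, a small Cajal body RNA, was at 78.3 and 41.0, against 41.5 and 80.9, a difference of -1.87. Gm22692, annotated as microRNA, was at 52.5 and 51.1, against 19.96 and 42.1, a difference of -1.08.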

How the results depend on the processing

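The change from P2 to P6 in SMA cords was called for 7 loci. This became 0 from the fragment estimates (36 at an unadjusted p under 0.05), 37 with the interval read as that of 1 library, 0 over protein-coding loci alone (16 unadjusted), 23 by intervals that do not overlap, 29 with control cords at P2 as the baseline, and 74 when loci listed at 0 were counted. The difference between genotypes, called for 5 loci, became 13 with the error from the lower bound, 3 from the fragment estimates, 62 with the interval of 1 library, 0 over protein-coding loci (40 unadjusted) and 122 with loci listed at 0 counted. Of the genes described, 47 were past 2-fold, against 98 at FPKM 1 or more, 22 at FPKM 20 or more, 107 with control cords at P2 as the baseline and 185 at 1.5-fold. Counting loci listed at 0 and the 1.5-fold threshold were chosen after seeing the data. The cause of these shifts was not tested, beyond that thresholds and sets of loci differ by construction. With the fragment estimates 6 of 53 list medians and 24.1% of the genes changed sign, and with control P2 as the baseline 20 lists and 34.8% of the genes. No paired analysis was possible because the tables hold 1 combined value per group, and for the same reason no library could be left out. With these intervals the median SE of a protein-coding gene was 0.53 on the log2 scale. At that SE changes under 2-fold were not detectable gene by gene, and larger ones could also go uncalled. Ptgds at 2.73-fold and Pmp22 at 2.53-fold in SMA cords were not called in the main test. With the interval read as that of 1 library, the z test called 3 protein-coding genes described here. Among them were Ptgds (adjusted p 2.94e-05) and Pmp22 (adjusted p 0.000736). The test of the difference then called 22 such genes. The lack of a protein-coding call thus depends on how the interval is read, and does not show that no such change took place.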

Other observations

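Some genes that are in none of the gene lists had ratios of similar size, and are named here after their values were seen; none was called by the z test. Fth1, the heavy chain of the iron store ferritin, was at FPKM 213.6 in SMA cords at P2 and 126 at P6, and at 108.3 and 119 in control cords. Apod, a lipid-binding apolipoprotein, was at 45.9 and 27.6 in SMA cords and at 17.1 and 23.6 in control cords. Gpd1, a cytosolic glycerol-3-phosphate dehydrogenase, was at 10.2 and 5.41, against 2.31 and 3.42. For Fth1, Apod and Gpd1 the SMA value at P2 was the highest of the 4 groups. Among genes with ratios above 0, Piezo2, a mechanically gated ion channel, was at 3.31 and 6.42 in SMA cords and at 3.92 and 4.68 in control cords, and S100a13, a calcium-binding protein, at 14.0 and 24.2, against 11.6 and 21.1.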
